A study of Rattus norvegicus with 22 samples.

Results

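The data describe 10 macrophage genes in oral squamous cell carcinoma (OSCC) of the rat tongue and in adjacent normal tongue. They are Csf1, Csf1r, C1qa, C1qb, Cd163, Mrc1, Msr1, Cd68, Fcgr1a and Trem2, a set of receptors, scavengers and secreted factors by which macrophages are recognised. Each gene was found on the array by its symbol, control spots were left out, and the probe with the highest mean over all 22 arrays stood for the gene. The 10 genes were carried by 12 probes, and 19167 symbols were measured in all.

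Tissue came from 11 male F344 rats of about 33 weeks, each of which gave an OSCC and a piece of phenotypically normal tongue next to it. The carcinogen 4-nitroquinoline 1-oxide (4-NQO), given in drinking water at 20 ppm for 10 weeks, induced the lesions, and tissue was taken 23 to 26 weeks after the first dose. By the protocol both pieces of a pair came from the same exposed rat, although the array titles call every rat untreated and the sample labels give the normal pieces no treatment, so no array of an unexposed tongue was included in this comparison. RNA was hybridised singly to a rat 4x44K oligonucleotide array with 60-base probes, and 11 normal and 11 OSCC arrays resulted.

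Macrophages take up dead cells, lipoproteins and microbes, and they arise both from cells seeded in the tissue early in life and from blood monocytes that enter later. The hormone-like factor CSF1 and its receptor CSF1R keep them alive and dividing. Resident cells of connective tissue are known for the haemoglobin scavenger receptor CD163, the mannose receptor MRC1 and abundant complement C1q, whereas cells newly drawn into inflamed tissue are known for high-affinity Fc receptors, cytokines and chemokines. TREM2 is a lipid-sensing receptor of phagocytes in tumours and damaged tissue.

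The 60-base probes of 4 genes on which the comparison of resident-type and recruited-type markers turns are given here as printed on the array, to show what each signal measured. The Cd163 probe lay at chr4:160423704-160423763 and the Mrc1 probe at chr17:88489156-88491763 of the rat assembly rn4, both on the plus strand. The Mrc1 coordinates spanned 2608 bases for 60 bases of probe, so that the probe crossed a splice junction. The Msr1 probe lay at chr16:56293586-56293645 on the plus strand and the C1qa probe at chr5:155662578-155662637 on the minus strand. The strand is taken from the order of the coordinates in the array annotation.
Cd163: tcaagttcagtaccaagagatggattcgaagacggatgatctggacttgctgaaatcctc
Mrc1: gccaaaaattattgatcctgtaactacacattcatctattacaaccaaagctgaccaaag
Msr1: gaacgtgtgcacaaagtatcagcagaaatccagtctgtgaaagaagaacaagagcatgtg
C1qa: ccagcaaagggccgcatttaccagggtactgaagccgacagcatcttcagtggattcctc

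Promoter windows, from 250 bases before to 50 bases after the transcript start, were available from RefSeq (assembly GRCr8) for 7 of the 10 genes, and Csf1, Fcgr1a and Msr1 had none. The core letters GAGGAA of the site bound by PU.1, the factor that directs macrophage development, were found on either strand in the windows of C1qb, Csf1r, Cd68, Mrc1 and Trem2, which is 5 of 7, against 27.6% of 33469 promoters. The AP-1 letters TGANTCA, which read alike on both strands, were found in Cd68 and Trem2, against 7.33% of all promoters. The letters TTCNNNGAA of an interferon-activated site, also alike on both strands, were found in C1qa, against 8.87%. None of the 3 was found in the Cd163 window. No match overlapped another, and the matches are descriptions of letters in a window. The 250 bases upstream of Cd68 (chr10:54882442-54882691, minus strand), Mrc1 (chr17:82157475-82157724, plus strand) and Cd163 (chr4:158770524-158770773, plus strand) are given for a gene with both PU.1 and AP-1 letters, a gene with PU.1 letters alone and a gene with neither, with the matches in capitals (TTCCTC is GAGGAA read from the other strand).
Cd68: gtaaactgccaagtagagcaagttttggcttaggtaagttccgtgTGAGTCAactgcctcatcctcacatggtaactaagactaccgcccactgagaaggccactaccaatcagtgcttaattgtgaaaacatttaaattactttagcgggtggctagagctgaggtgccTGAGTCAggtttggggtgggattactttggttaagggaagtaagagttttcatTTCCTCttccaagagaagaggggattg
Mrc1: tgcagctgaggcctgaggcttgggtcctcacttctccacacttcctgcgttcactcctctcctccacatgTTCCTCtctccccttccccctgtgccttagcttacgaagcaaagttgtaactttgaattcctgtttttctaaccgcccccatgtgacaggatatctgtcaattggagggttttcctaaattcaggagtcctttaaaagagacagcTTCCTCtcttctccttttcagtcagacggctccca
Cd163: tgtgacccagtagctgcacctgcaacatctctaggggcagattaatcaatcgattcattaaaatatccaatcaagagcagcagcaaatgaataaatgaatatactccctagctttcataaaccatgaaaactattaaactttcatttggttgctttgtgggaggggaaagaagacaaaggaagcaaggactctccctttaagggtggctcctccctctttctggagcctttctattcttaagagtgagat

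Levels are given as the log2 of the array's processed signal relative to the 75th percentile of that array, so that 0 is the brightness of the 75th percentile probe and a difference of 1 is a doubling. The 75th percentile signal was 236.8 to 654.9 on the normal arrays and 338.7 to 1414 on the OSCC arrays, and between 48.4% and 65.5% of probes per array were well above background. All 11 normal arrays and the OSCC arrays of rats 4 and 9 were scanned on the first day, the other 9 OSCC arrays were scanned on the second, and no slide held both tissues. The pairs of rats 4 and 9 are therefore given separately as the pairs scanned on 1 day.

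The macrophage genes were higher in OSCC as a group, but not evenly. Of the 10, 6 rose, namely Csf1r, Mrc1, Msr1, Cd68, Fcgr1a and Trem2, where rising means a Benjamini-Hochberg adjusted p below 0.05 over all 30367 probes in the paired limma fit together with a change of at least 2-fold. By the same rule 7.48% of all symbols rose and 7.24% fell, and none of the 10 macrophage genes fell. C1qa and C1qb were higher by the p-value but by less than 2-fold, and Csf1 and Cd163 passed neither threshold. The median difference over the 10 genes was 1.43 on the log2 scale, or 1.05 with Msr1 at its lower bound. Beside it stood -0.21 over all symbols, and -0.04 over the probes well above background on at least 11 arrays. Cd68, Fcgr1a and Msr1, 3 of the 10, were higher in OSCC in all 11 pairs, as were 4.67% of all symbols. For Msr1 this takes signals as read, since in rats 17, 21 and 22 neither tissue was well above background. Its count among the 6 also took signals as read, and its lower bound was only 1.25-fold. In bulk tissue, more cells of a type and more RNA per cell cannot be told apart.

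**Figure D1:**
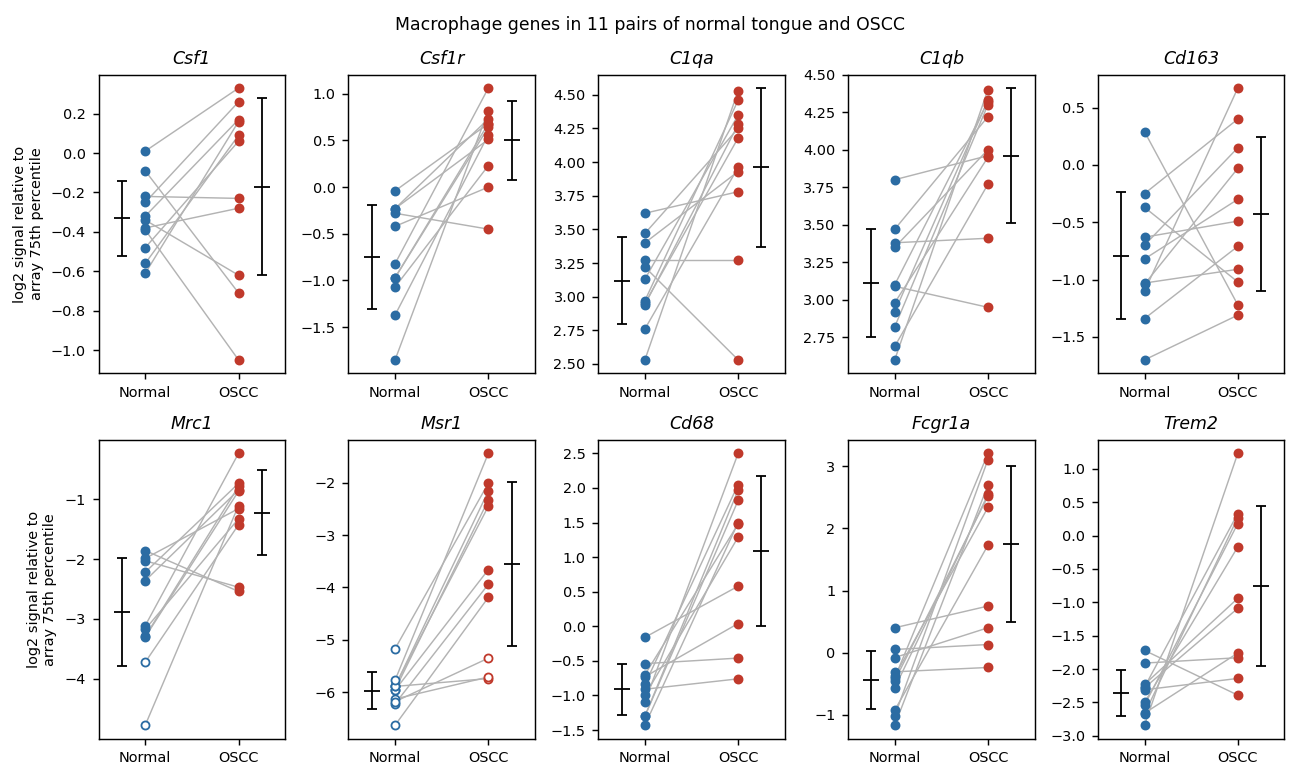
Levels of the 10 macrophage genes in each piece of tissue, as log2 signal relative to the 75th percentile of the array (y axis, a separate scale for each gene), with lines joining normal tongue and OSCC of 1 rat; open points were not well above background, and bars beside the points are means with SD (n = 11). Cd68, Fcgr1a and Msr1 were higher in OSCC in all 11 pairs, whereas the lines of Csf1 and Cd163 cross. For Msr1 both points of rats 17, 21 and 22 were not well above background.

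Csf1, the growth factor on which most macrophages depend, ranged from -0.61 to 0.01 in normal tongue (median -0.34) and from -1.05 to 0.33 in OSCC (median 0.06). The OSCC values spread more widely and enclosed all of the normal values. The mean difference was 0.16 ± 0.16 (SE, n = 11), with a 95% interval of -0.17 to 0.50 and a limma adjusted p of 0.39, so a rise beyond 1.41-fold lay outside the interval. Scaling the arrays to their median turned the difference to -0.04.

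Csf1r, the receptor for that factor, was between -1.85 and -0.04 in normal tongue (median -0.82) and between -0.45 and 1.06 in OSCC (median 0.64). In 10 of the 11 OSCC pieces it was above every normal piece, and the exception was an OSCC that stayed within the normal range. The receptor rose 2.38-fold, a log2 difference of 1.25 ± 0.23 (SE, n = 11; limma adjusted p = 0.0017). A second Csf1r probe, well above background on 9 of the 11 normal arrays, rose 3.02-fold and in all 11 pairs. The receptor and its ligand therefore differed in their change within the same arrays: the ratio of Csf1 to Csf1r was lower in OSCC in all 11 pairs, by -1.08 ± 0.19 (SE) on the log2 scale (exact sign-flip test, two-sided, p = 0.00098, the smallest value that 11 pairs allow, and 0.0049 after adjustment over the 5 ratios tested). In the pairs scanned on 1 day this ratio moved by -0.43 in rat 4 and by -1.52 in rat 9.

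C1qa and C1qb encode chains of C1q, the recognition molecule of the classical complement pathway, which macrophages make in quantity. C1qa was at 2.53 to 3.62 in normal tongue (median 3.13) and at 2.53 to 4.53 in OSCC (median 4.18). C1qb was at 2.60 to 3.80 (median 3.09) and at 2.95 to 4.40 (median 4.00). Most OSCC pieces, 9 for C1qa and 8 for C1qb, exceeded every normal piece, while the OSCC of rat 17 was below its own normal tissue for both. The differences were 0.84 ± 0.22 (1.79-fold, limma adjusted p = 0.012) and 0.86 ± 0.19 (1.81-fold, adjusted p = 0.0042; SE, n = 11). Both 95% intervals reached beyond 2-fold, to 2.50-fold and 2.40-fold, and without rats 21, 22 and 24, which the study describes as variable, both genes passed the 2-fold threshold. Under normexp correction neither passed the p threshold (limma adjusted p = 0.084 for C1qa and 0.096 for C1qb), nor did C1qa in the 9 pairs scanned on different days (0.052). Of the whole C1 complex, the third chain C1qc rose 2.80-fold and the proteases C1r (0.70) and C1s (0.57) stayed below 2-fold. Thus 1 of the 5 genes of the complex rose, beside 7.48% of all symbols.

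Cd163, the receptor that clears haemoglobin bound to haptoglobin, was between -1.70 and 0.29 in normal tongue (median -0.82) and between -1.31 and 0.67 in OSCC (median -0.49). The tissues overlapped almost completely, and only 2 OSCC pieces lay above every normal one. Its difference was 0.36 ± 0.24 (SE, n = 11; limma adjusted p = 0.24), with a 95% interval of -0.17 to 0.89, and the pairs ran from -1.51 in rat 21 to 1.77 in rat 24. Without rat 24 the difference was 0.21 (limma adjusted p = 0.43), and without rat 21 it was 0.54 (adjusted p = 0.039), still below 2-fold. Cd163 was higher in OSCC in 9 of the 11 pairs, but by 2-fold or more only in rats 13 and 24.

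Mrc1, the mannose receptor, was at -4.77 to -1.86 in normal tongue (median -3.11), where 8 of 11 arrays were well above background, and at -2.54 to -0.24 in OSCC (median -1.11), where all were. In 9 OSCC pieces Mrc1 was above every normal piece, and those of rats 17 and 21 were lower than their own normal tissue. Mrc1 rose 3.17-fold, a difference of 1.66 ± 0.37 (SE, n = 11; limma adjusted p = 0.0044). After normexp background correction its difference was 0.73, below 2-fold.

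Msr1, the class A scavenger receptor for modified lipoproteins, did not stand well above background on the normal arrays, with signals of -6.63 to -5.17 (median -5.95). In OSCC 8 of 11 arrays were well above background and the values ran from -5.74 to -1.44 (median -3.66). The 8 measured OSCC pieces were brighter than all normal pieces, and the 3 others, from rats 17, 21 and 22, remained at the level of the background. With the normal tissue known only as a bound, Msr1 was at least 1.25-fold higher in OSCC (limma adjusted p of the fit = 0.00082). It was higher as read in 11 of 11 pairs, which counts the 3 pairs at background in both tissues. Normexp correction left the difference at 0.62 with a limma adjusted p of 0.24.

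Cd68, a lysosomal glycoprotein of phagocytes, was at -1.43 to -0.16 in normal tongue (median -0.91) and at -0.76 to 2.50 in OSCC (median 1.48). In OSCC 9 pieces exceeded every normal piece, and the remaining ones lay inside the normal range although each was above its own partner. The rise was 4.01-fold, a difference of 2.0 ± 0.36 (SE, n = 11; limma adjusted p = 0.0015).

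Fcgr1a, the high-affinity receptor for IgG, showed the largest fold measured on both sides among the 10 genes. It ran from -1.17 to 0.40 in normal tongue (median -0.41) and from -0.24 to 3.21 in OSCC (median 2.34). The rise was 4.56-fold, a difference of 2.19 ± 0.44 (SE, n = 11; limma adjusted p = 0.0026). A second Fcgr1a probe rose 5.82-fold, and on that probe every OSCC piece was above every normal piece, whereas no brightest probe of the 10 genes separated the tissues fully, a separation that 0.694% of all symbols showed. Within the Fc receptor list 5 of 7 genes rose, beside 7.48% of all symbols. They included Fcgr3a (6.06-fold), Fcgr2b (5.56-fold) and the signalling chain Fcer1g (3.37-fold). The neonatal receptor Fcgrt (-0.23) and the IgE receptor chain Fcer1a (-0.99) did not pass the thresholds.

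Trem2, the lipid-sensing receptor, was at -2.84 to -1.72 in normal tongue (median -2.31) and at -2.39 to 1.23 in OSCC (median -0.94). In OSCC 7 pieces were above every normal piece, and the other 4 overlapped with them. It rose 3.03-fold, a difference of 1.60 ± 0.40 (SE, n = 11; limma adjusted p = 0.0083), with a spread between pairs from -0.67 in rat 21 to 4.07 in rat 16.

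**Figure D2:**
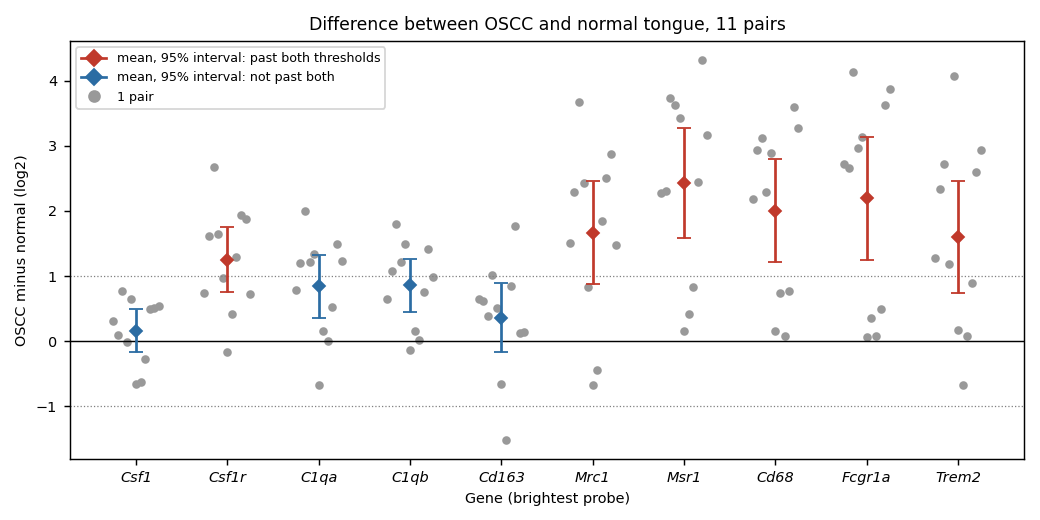
Difference between OSCC and normal tongue for each gene (y axis, log2), with 1 grey point per pair and the mean with its 95% interval from the paired limma fit (n = 11); dotted lines mark a 2-fold change. The intervals of Csf1 and Cd163 include 0, and 6 genes, in red, passed both thresholds. Msr1 did so by its signals as read, with a lower bound of 1.25-fold.

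The rats differed in how far these genes moved. In 7 pairs, those of rats 4, 9, 11, 13, 16, 25 and 26, Fcgr1a was higher in OSCC by 2.66 to 4.13 on the log2 scale and Cd68 by 2.18 to 3.59. In the pairs of rats 17, 21, 22 and 24, Fcgr1a was higher by only 0.07 to 0.49 and Cd68 by 0.08 to 0.77. The resident-type receptors divided those 4 differently: Mrc1 was lower in OSCC in rats 17 (-0.68) and 21 (-0.44) and higher in rats 22 (1.84) and 24 (2.50), and Cd163 was likewise -0.65, -1.51, 0.85 and 1.77. Rat 17 had 4 of the 10 genes higher in OSCC and rat 21 had 6, against 8 to 10 in every other rat. These counts take Msr1 as read, although in rats 17, 21 and 22 it was not well above background in either tissue. The arrays as a whole also differed between these rats. Over all symbols the median difference was 0.05, 0.24, 0.04 and 0.07 in rats 17, 21, 22 and 24. In the other 7 rats it was -0.36 to -0.24. No test was made between these rats, which were separated by the measurement itself. Rats 21, 22 and 24 are those that the study describes as variable, and the pairs of these rats and of rat 17 were scanned on different days, as were 5 of the other 7. In both pairs scanned on 1 day, rats 4 and 9, all 10 genes were higher in OSCC.

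**Figure D3:**
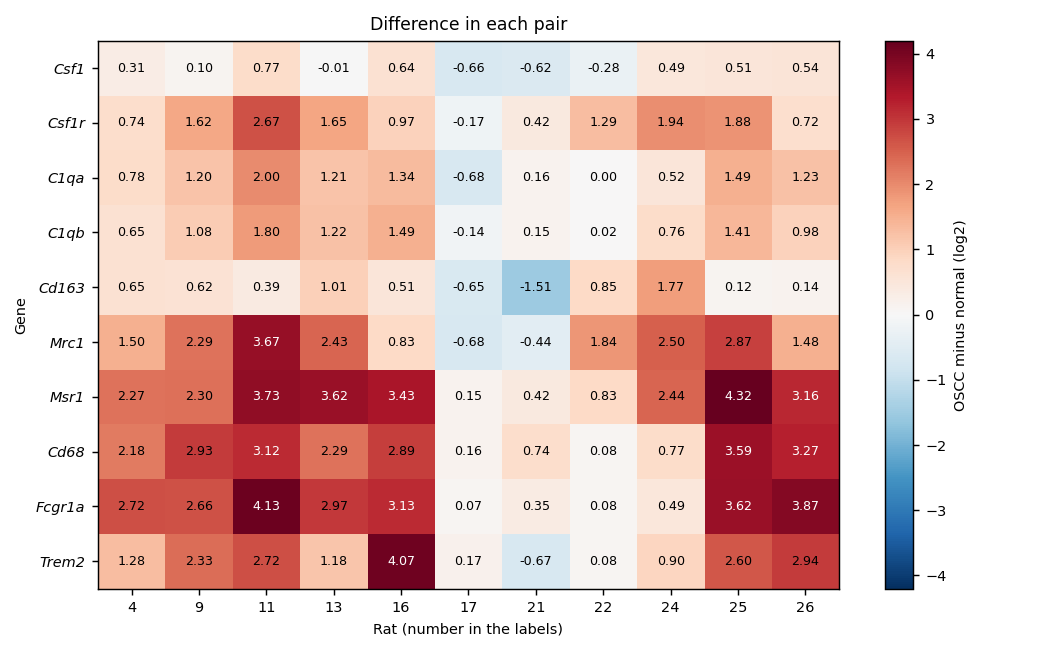
Difference between OSCC and normal tongue (colour and printed value, log2) for each gene (rows) in each rat (columns). Cd68 and Fcgr1a are below 0.8 in rats 17, 21, 22 and 24 and above 2 in the other 7, while Mrc1 and Cd163 are negative only in rats 17 and 21.

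The contrast of resident-type with inflammatory-type or recruited-type genes was made within arrays, where scaling by a constant cancels. In 9 of 11 pairs the ratio of Fcgr1a to Cd163 was higher in OSCC, by 1.83 ± 0.51 (SE) on the log2 scale (exact sign-flip test, two-sided, p = 0.0098, adjusted over 5 ratios 0.024). The ratio of Trem2 to Cd163 was higher by 1.24 ± 0.44 in 9 of 11 pairs (exact p = 0.021, adjusted 0.027). The pairs of rats 22 and 24 went the other way for both. Without rat 16, 25 or 26 the Trem2 to Cd163 ratio was 1.01, 1.12 or 1.09 and no longer passed the adjusted threshold.

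The remaining ratios set Mrc1 against the other genes. The ratio of Msr1 to Mrc1 was higher by 0.76 ± 0.30 in 9 of 11 pairs (exact p = 0.034, adjusted 0.034), although every normal Msr1 signal was at background and leaving out any of 7 single rats (4, 13, 16, 17, 21, 25 or 26) took the adjusted p above the threshold, with values of 0.58 to 0.76. The ratio of C1qa to Mrc1 was lower by -0.82 ± 0.28, with 2 of 11 pairs above 0 (exact p = 0.019, adjusted 0.027), and without rat 25, at -0.77, it did not pass. Both ratios with Mrc1 turned direction under normexp background correction, to -0.11 and 0.09, so their direction depends on how the dim Mrc1 and Msr1 probes are corrected. In rats 4 and 9, scanned on 1 day, the Fcgr1a to Cd163 ratio moved by 2.07 and 2.04, and the Trem2 to Cd163 ratio by 0.63 and 1.71. In the 9 pairs scanned on different days the exact adjusted p was 0.055 for all ratios but that of Csf1 to Csf1r, for which it was 0.02.

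**Figure D4:**
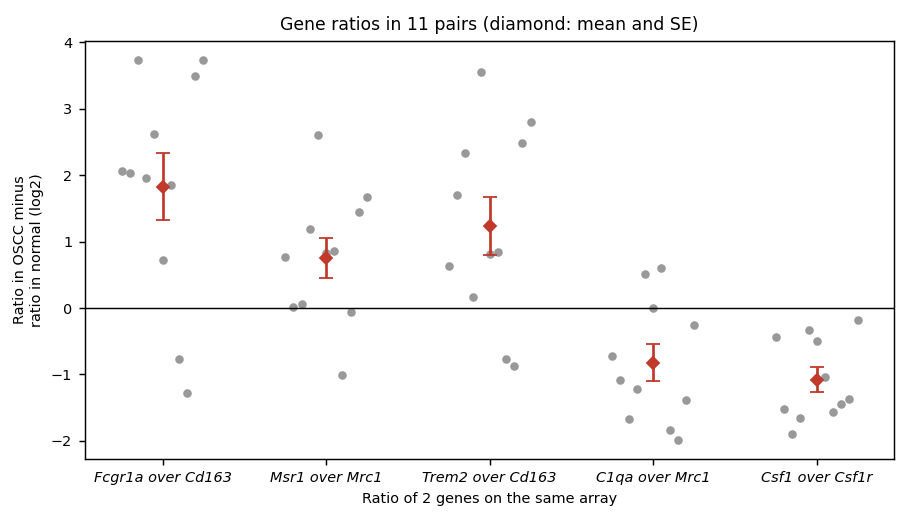
Change of 5 gene ratios between normal tongue and OSCC (y axis, log2), with 1 grey point per pair and the mean with SE as a diamond (n = 11). Csf1 over Csf1r is below 0 in all 11 pairs, and Fcgr1a over Cd163 is above 0 in 9.

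The lists of resident-type and inflammatory-type genes around the 10 are described by their counts. Of 17 resident-type genes on the array, 4 rose and none fell (median difference 0.69), among them Mrc1, the chemokine Pf4 (2.81-fold) and C1qc (2.80-fold). That median was the value of Vsig4, which was well above background on no normal array and on 2 OSCC arrays. The values on either side of it were 0.36 for Cd163 and 0.70 for Clec10a. The folate receptor Folr2 (0.95) and the lectin Clec10a (0.70) were below 2-fold, and others of that list lay near or below 0, among them Maf (-0.02), Igf1 (-0.01), Lyve1 (-0.26), the ligand Gas6 (-0.50) and the transglutaminase F13a1 (-0.58). Of 21 inflammatory-type genes, 15 rose and none fell. The median was 2.16, or 1.53 with the bounds, where a gene without a bound above 1 kept its value as read. Among the 15 were Nos2, at least 1.94-fold higher, and Il6, which had no bound above 1. Il6 was well above background on 4 OSCC arrays and on no normal one. The 15 also included the chemokine Ccl3 (42.0-fold, though only 2 normal arrays were well above background), the itaconate enzyme Irg1 (at least 4.44-fold) and the cytokine Il1b (17.9-fold). The T cell attracting chemokines Cxcl9 (-0.03) and Cxcl10 (0.26), the regulator Irf5 (0.15) and the receptor Cd40 (0.94) did not pass the thresholds. Neither did the cytokine subunit gene Il12b, which had no array of normal tongue well above background, and Cd80 was never well above it. The share of all symbols that rose was 7.48% here too, and the lists were written with earlier results of these data known.

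Within each rat, the 4 resident-type genes Cd163, Mrc1, C1qa and C1qb had a mean difference of -0.54 to 1.96 (median 1.04) and the inflammatory-type list one of -0.02 to 4.10 (median 2.68). The inflammatory-type mean was the larger in 9 pairs, by 1.24 to 2.14. In rats 22 and 24 it was the smaller, by -0.59 and -1.41, with inflammatory-type means of 0.09 and -0.02 beside resident-type means of 0.68 and 1.39. In rats 17 and 21 the order was as in the other 7 rats, but with resident-type means below 0. These means take signals as read, and 8 of the 21 inflammatory-type genes were not well above background in any normal piece. Which cells gave the signals of either group was not tested. Neutrophil genes such as S100a9 (27.5-fold) and Csf3r (10.0-fold) rose too.

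**Figure D5:**
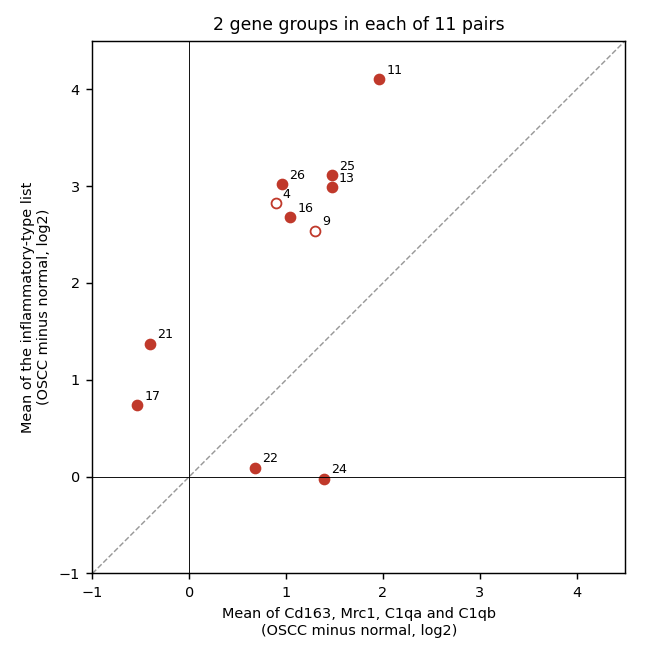
Mean difference between OSCC and normal tongue (log2) of Cd163, Mrc1, C1qa and C1qb (x axis) and of the 21 inflammatory-type genes (y axis), with 1 point per rat; open points are the pairs scanned on 1 day and the dashed line marks equal change. Rats 22 and 24 lie below the line, and 9 rats lie above it.

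Around the growth factor axis, 6 of 12 genes rose and none fell (median 1.11, or 0.89 with the bounds). Csf2 had no normal array well above background and no bound above 1, and it entered both medians as read, at 0.82. The 0.89 therefore still rested partly on a signal as read. The granulocyte receptor Csf3r rose 10.0-fold, its ligand Csf3 rose 6.15-fold, and the shared receptor chain Csf2rb was at least 1.04-fold higher. Il34, the alternative ligand of CSF1R, was at -0.05 (SE 0.15, limma adjusted p = 0.78), so that neither known ligand of the receptor passed the test. Of 20 general monocyte and macrophage genes on the array, which include Cd68 and Csf1r, 18 rose and none fell (median 1.76, or 1.71 with the bounds), beside 7.48% of all symbols that rose. The pore-forming protein gene Mpeg1 was at least 3.44-fold higher, the oxidase subunit gene Cybb rose 7.35-fold and Ms4a7 rose 6.36-fold. Laptm5 (0.79) and the sialic acid receptor Siglec1 (0.17) did not pass.

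Scavenger receptors did not move as a block. Of 20 on the array, 7 rose and 1 fell (median 0.58, or 0.34 with the bounds). Here and for the next list, 7.48% of all symbols rose and 7.24% fell. The oxidised lipoprotein receptor Olr1 was at least 5.52-fold higher and the glucan receptor Clec7a at least 2.70-fold higher, and the lysosomal protein gene Scarb2 rose 2.18-fold in 11 of 11 pairs. Cd36, a fatty acid receptor that muscle, fat and endothelium also express, fell by 1.51 on the log2 scale (limma adjusted p = 0.014), and it was higher in OSCC in 2 of 11 pairs. Marco and Stab2 were never well above background. Of 18 genes of the lipid-associated program linked with Trem2, 5 rose and none fell (median 0.37), namely the matrix cytokine Spp1 (27.5-fold), the protease Lgmn (3.43-fold), Trem2, Gpnmb (2.94-fold) and the TREM2 signalling partner Tyrobp (2.84-fold). Genes of lipid transport and breakdown in that list did not pass both thresholds, with differences from -0.82 for Fabp4 and 0.03 for Fabp5 through 0.14 for Lipa, 0.21 for Apoe, 0.31 for Lpl and 0.43 for Abca1 to 0.67 for Abcg1.

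For 3 of 6 relations between changes over the 11 pairs the values showed no wide gap. C1qa and C1qb moved together (Pearson r = 0.97, permutation adjusted p over 6 relations = 6e-05, Spearman rho = 0.95, adjusted p = 0.00042; r = 0.96 without the 2 pairs farthest from the median and 0.97 in the 9 pairs scanned on different days). For Cd163 and Mrc1 r was 0.68 (permutation p = 0.02, adjusted 0.06) and rho 0.45 (adjusted 0.26), with r = 0.55 without the 2 farthest pairs and 0.69 in the 9 pairs. Csf1 and Csf1r gave r = 0.64 (permutation adjusted p = 0.068) and rho 0.53 (adjusted 0.20), with 0.69 in the 9 pairs, but r = 0.22 without the 2 farthest pairs, so that relation rested on them.

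For the other 3 relations the pairs fell into separate clusters, and r was taken within the larger cluster. Fcgr1a and Cd163 had r = -0.70 in the 7 pairs in which Fcgr1a was high (exact permutation p = 0.086, adjusted 0.13; rho = -0.71, adjusted p 0.20), and r = -0.41 in those pairs with median scaling. Cd68 and Csf1r had r = 0.32 in the same 7 pairs (exact permutation p = 0.49, adjusted 0.49; rho = 0.29, adjusted p 0.56). Msr1 and Trem2 had r = 0.43 in 8 pairs (exact permutation p = 0.28, adjusted 0.34; rho = 0.33, adjusted p 0.51), with 0.34 without the 2 farthest and 0.37 in the 6 of them scanned on different days. None of these 3 passed the test.

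The genes whose changes over the 11 pairs were most like those of a macrophage gene are given as a description, by Pearson r among 11664 symbols that share the same arrays. For Csf1r they were Dcn (0.97), Lrp1, RGD1564614, C1s and Mrc1 (0.95 each). For Cd163 they included Caskin2 (0.93), Apod (0.92), Wtip (0.88) and Cxcl12 (0.87). For Msr1 they were Nid2, Dab2, Oaf, Eno2 and Mmp23 (0.96 each), and for Trem2 they were Tec (0.96), Apobec1 (0.93), Ctsb, Matk and Clec12a (0.92 each). The Msr1 values pool all 11 pairs, although its changes fell into separate clusters. They include rats 17, 21 and 22, where Msr1 was not well above background in either tissue. The symbols like Msr1 were all below 2-fold themselves, with differences from 0.08 (Eno2) and 0.14 (Oaf) to 0.67 (Nid2).

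Markers of other cells moved with the tissues too, and their counts stand beside 7.48% of all symbols that rose and 7.24% that fell. Of neutrophil genes 6 of 9 rose, and the log2 of their summed signal went from -0.31 to 2.25 in normal tongue to 0.82 to 8.63 in OSCC, with Mpo and Ngp never well above background. In normal tongue 5 of the 9 were well above background on no array, as were all 5 B and plasma cell genes, whose normal sums are therefore background signal. Of T cell genes 6 of 8 rose (summed -0.36 to 1.5 and 0.33 to 2.69), of B and plasma cell genes 3 of 5 (-3.41 to -2.13 and -2.76 to 1.90), of dendritic cell genes 1 of 6 (4.03 to 5.14 and 3.92 to 6.0) and of fibroblast genes 6 of 7 (5.74 to 6.56 and 5.64 to 8.79). Of skeletal muscle genes 4 of 7 fell (10.01 to 11.10 and 5.73 to 11.15), and of mast cell genes 2 of 8 fell (2.41 to 3.80 and 0.06 to 4.38, with Mcpt1 never well above background). None of 6 endothelial genes changed by the rule (3.25 to 3.82 and 1.99 to 3.74), 1 of 5 lymphatic endothelial genes rose (1.34 to 2.47 and 1.37 to 4.15, with Prox1 and Stab2 never well above background), and 1 of 7 squamous epithelial genes rose (8.53 to 9.77 and 7.86 to 9.97). Squamous epithelial and muscle markers were measured in both tissues, but their differences were uneven over the rats. Rat 24 had the lowest pair difference of Krt5 (-3.53), Krt14 (-4.33), Tp63 (-3.04), Cdh1 (-1.83) and Dsg3 (-2.47), though not of Krt13 and Krt4. The highest pair differences of muscle genes were in rats 21, 22 and 24, among them Ckm (0.77, rat 21), Mb (0.19, rat 22) and Tnnt3 (0.68, rat 24). The part of these other cells in the macrophage gene differences was not tested.

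Scan day was nearly the same as tissue, and its part could be judged from 2 rats alone. With scan day as a term the differences equal the mean of rats 4 and 9: 2.56 for Cd68, 2.69 for Fcgr1a, 2.29 for Msr1, 1.90 for Mrc1, 1.81 for Trem2 and 1.18 for Csf1r. None of the 10 genes then passed the limma adjusted threshold, and by an unadjusted p below 0.05 with 2-fold, a rule chosen after seeing the data, 3 of the 10 (Cd68, Fcgr1a and Msr1) were higher, beside 6.21% of all symbols.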

How the data were processed

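Total RNA of 11 pairs was labelled in 1 colour. The authors scanned the arrays with Agilent Feature Extraction (version 9.5.3.1 per the file headers) and deposited each spot's processed intensity, which is background-subtracted; probe positions are those of rn4. The deposited series table holds a ratio to each array's 75th percentile: 99.5% of its values at or above 0.5 lay within 2% of the scanner signal divided by that percentile, and it served as an alternative. From the 42877 gene spots per array, 9196 spots flagged as outliers over all arrays (0.975%) were left out. Spots of 1 probe were averaged on the log2 scale, and the 75th percentile of the array's probes was then subtracted. All 30367 probes were fitted with limma 3.58.1 (R 4.3.3), with tissue and animal as terms, since the protocol takes both pieces from 1 rat; the correlation of same-rat deviations was -0.21 to 0.24 (median -0.025). Adjusted p is Benjamini-Hochberg over all probes. Where a probe was well above background on no array of 1 tissue, a fold is given only as a lower bound, and no fold where that bound was under 1. Medians with the bounds kept the difference as read for a gene without such a bound. Calls also used signals as read, so Il6 and the neutrophil gene Camp counted as risen without a bound above 1. Msr1, Nos2 and Csf2rb, among others, counted as risen with a bound under 2-fold. Gene ratios were tested with an exact sign-flip test, and relations with 100000 permutations, or all of them under 10 pairs (scipy 1.17.1). The fit was tested on simulated data. No separate cultures or repeat arrays exist for a piece, and the number of arrays limits the precision.

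The 10 genes and all lists were chosen with earlier results of these data known. From each list the text names the 3 genes with the largest called change and the uncalled ones where 5 or fewer; other uncalled list genes, and the called ones beyond 3, were picked after their values were seen. For Csf1r, Cd163, Msr1 and Trem2 the 5 symbols of most similar change are named, among those well above background on at least 11 arrays; some genes are not reported here. Within-cluster correlations, used where a gap exceeded 30% of the range, were chosen after seeing the data. The median of all probes differed by -0.24 between the tissues.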

Additional observations from a re-analysis of the deposited data

How the results depend on the processing

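The count of 6 macrophage genes that rose was 4 under normexp correction (without Mrc1 and Msr1), 5 with the filter on dim probes, which removed Msr1 from the fit, 7 under quantile normalization and 8 without rats 21, 22 and 24. It was 6 in each fit that left out 1 rat and under the remaining settings other than scan day. Without the animal term (no replicate block) in place of the paired fit it was also 6, and no list count moved by over 1.5 times. With scan day as a term it was 0 by adjusted p and 3 by unadjusted p, and 0 genes rose in the resident-type, inflammatory-type, core, growth factor, scavenger, lipid-associated, Fc receptor and C1 lists, where 0 scavenger receptors fell; that fit called 3 of 30367 probes, against 4201, and 9578 at an unadjusted p. Without rats 21, 22 and 24, 7 resident-type genes rose and 1 fell, 2 scavenger receptors fell, 1 lipid-associated gene fell and 3 C1 genes rose, of 6924 probes called, and C1qa (1.07) and C1qb (1.06) passed. Quantile normalization called 2 C1 genes and C1qa (1.00). Normexp correction gave 9 inflammatory-type genes and 2 scavenger receptors, of 1701 probes called, and the filter on dim probes gave 8 and 4. The 9 pairs scanned on different days gave 0 scavenger receptors that fell, and median scaling gave 1 lipid-associated gene that fell. Median scaling moved the median of all probes from -0.24 to -0.44 and the share of calls that were higher from 49.6% to 32.8%; with the percentile of detected probes that share was 57.3%, and with the 3 rats left out 38.1%. Of the ratios, normexp gave -0.11 for Msr1 over Mrc1, 0.09 for C1qa over Mrc1 and 0.79 for Trem2 over Cd163. Quantile normalization gave 0.90 for Msr1 over Mrc1, 1.20 for Trem2 over Cd163 and -0.55 for C1qa over Mrc1, none past the threshold. In the 9 pairs the values were 1.78 for Fcgr1a over Cd163, 0.85, 1.26 and -0.80, none past the threshold, with fewer pairs. Leaving out 1 rat gave 0.58 to 0.94 for Msr1 over Mrc1, 1.01 to 1.46 for Trem2 over Cd163, which lost its call without rat 16, 25 or 26, and -0.96 to -0.71 for C1qa over Mrc1, which lost it without rat 25. Other causes were not tested. Brightness near background limits Msr1, Mrc1 and the bounded genes.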
